A study of Mus musculus with 19 samples.

Results

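Ionotropic glutamate receptors are ligand-gated cation channels built from 4 subunits, and each subunit is the product of its own gene. The genes described here are 9 of the 18 that encode such subunits in the mouse: Gria1, Gria2, Gria3 and Gria4 of the AMPA class, Grid1 of the delta class, Grik1 and Grik5 of the kainate class, and Grin2b and Grin2d of the NMDA class. They were named as a set and matched by symbol to 9 of the 49089 genes in the counts. Some of the 9 were picked from these data because their transcripts were higher after mating, so for them the difference between mated endometrium and estrus is a description and not a test.

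Endometrial RNA from wild-type C57Bl/6 females was sequenced in 19 libraries of 5 groups, and each sample was a pool. CONT (3 libraries, numbered 1, 2 and 4) came from virgin females around ovulation, a stage called estrus here. INT (4 libraries) came from females that had mated with intact BALB/c males, taken at day 3.5 pc (post coitum). SVX, SVX_VAS and VAS (4 libraries each) came from females on the same day after mating with BALB/c males that had been vasectomised, made seminal vesicle-deficient, or both. Mated females were 8 to 14 weeks old when paired, and the age of the CONT females is not given in the sources used here. The titles call the SVX samples vasectomised matings, the SVX_VAS samples seminal vesicle-deficient matings and the VAS samples both, which goes against the names of their count columns, so the column names are used and no surgery is assigned to these 3 groups. The endometrium was scraped off the myometrium, so each library mixes epithelium, stroma, vessels and leukocytes, and fewer cells of a type and less RNA per cell cannot be told apart. Nothing in the labels ties a replicate number to an animal or a day, so a p-value measures the spread between these pools.

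AMPA receptors carry the fast excitatory current of most brain synapses, and the Gria2 subunit, once its transcript has been edited, keeps calcium out of the channel. Kainate receptors combine the low-affinity subunits Grik1 to Grik3 with the high-affinity subunits Grik4 and Grik5, which do not form working channels alone. NMDA receptors need the Grin1 subunit, which binds glycine, and pair it with Grin2 subunits, which bind glutamate, or with Grin3 subunits, which bind glycine. Delta receptors bind glycine and D-serine and act mainly as adhesion partners of neurexins at synapses. These genes are best known in neurons and glia, and transcripts of several have been found in tissues outside the nervous system.

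The libraries held 12661266 to 31781270 counts. Values are CPM, the counts of a gene over the library total, rescaled with trimmed mean of M-values (TMM) factors to a common library size. Endometrial markers were present at estrus, where 6 epithelial markers summed to 3209 to 4391 CPM and 8 stromal fibroblast markers to 4815 to 5083 CPM. VAS2 and VAS3 stood apart from the other 17 libraries: their 100 most abundant genes took 5.93% and 5.92% of the counts against 12.1% to 14.1%, and their stromal markers summed to 1723 and 1827 CPM against 6119 to 8424 CPM in the other 14 mated libraries. The sum of 8 estrogen-response genes was 11704 to 15126 CPM in CONT. Among mated libraries it was 9914 CPM in INT1, 3483 CPM in INT2, 10758 CPM in SVX_VAS2 and 2878 CPM in VAS1, and 197 to 1118 CPM in the other 12.

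Promoter sequence was found for 4 of the 9 genes in the RefSeq table of GRCm38.p6. The 250 bases before the start site are shown for Gria4 and Grik5, which were higher after mating, and for Grin1 and Grik4, which belong to the same gene family and were lower. The RefSeq starts are not always those of the GENCODE genes given below: the Grik4 window overlaps the GENCODE gene, and the Grin2d window lies inside it. Sequences run 5′ to 3′ on the strand of the gene, and capitals mark matches to 3 short motifs: the GC box GGGCGG, the E box CACGTG and the cyclic AMP response element core TGACG, each searched on both strands, so TGACG can read CGTCA.
Gria4 (chr9:4796235-4796484, minus strand): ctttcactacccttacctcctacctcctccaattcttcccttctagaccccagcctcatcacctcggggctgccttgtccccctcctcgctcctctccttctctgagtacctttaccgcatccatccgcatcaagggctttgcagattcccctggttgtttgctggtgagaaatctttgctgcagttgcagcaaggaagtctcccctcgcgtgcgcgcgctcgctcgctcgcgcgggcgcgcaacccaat
Grik5 (chr7:25072370-25072619, minus strand): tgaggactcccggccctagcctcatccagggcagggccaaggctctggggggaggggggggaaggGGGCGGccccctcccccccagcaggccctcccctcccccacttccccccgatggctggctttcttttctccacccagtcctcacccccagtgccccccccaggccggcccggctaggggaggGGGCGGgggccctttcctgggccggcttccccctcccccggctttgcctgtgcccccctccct
Grin1 (chr2:25319188-25319437, minus strand): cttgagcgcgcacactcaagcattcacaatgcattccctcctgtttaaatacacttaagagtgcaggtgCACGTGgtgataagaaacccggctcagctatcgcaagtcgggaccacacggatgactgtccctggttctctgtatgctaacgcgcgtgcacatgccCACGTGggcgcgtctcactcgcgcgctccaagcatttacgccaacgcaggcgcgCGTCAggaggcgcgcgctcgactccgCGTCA
Grik4 (chr9:42944372-42944621, minus strand): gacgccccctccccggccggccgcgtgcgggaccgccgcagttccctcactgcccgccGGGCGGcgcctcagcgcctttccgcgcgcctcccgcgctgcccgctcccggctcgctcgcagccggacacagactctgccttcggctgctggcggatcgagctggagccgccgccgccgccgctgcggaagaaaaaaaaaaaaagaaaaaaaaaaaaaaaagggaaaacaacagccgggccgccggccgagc
Grik5 held 2 GC boxes and Grik4 held 1, and 32.7% of the 32817 promoter windows of this length held at least 1. Grin1 held 2 E boxes and 2 TGACG cores, found in 6.02% and 17.7% of all windows. Gria4 held none of these letters, and neither did Gria2 or Grin2d. The estrogen response element core GGTCA (35.2% of windows) and the progesterone response element core TGTTCT (16.1%), also searched on both strands, were found in none of the Gria2, Gria4, Grik5, Grin2d, Grin1 and Grik4 windows. Of the other receptor genes with a window, Grik2, Grin2c and Grin3b held GGTCA, Grin3b also held TGTTCT, and Grik3 held neither. The GC content was 58.8% for Gria4 and Grin1, 64.8% for Gria2, 69.6% for Grik4, 75.2% for Grik5 and 54.4% for Grin2d, and the median of all windows was 52.4%.

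Of the 9 genes, 8 were higher in INT than in CONT at a false discovery rate (FDR) of 0.05 or less and a change of at least 1.5-fold, the cutoffs of the edgeR fit over the 17222 genes that reached 3 CPM in 3 or more libraries. The exception was Gria1. Of all genes tested, 20.9% were called higher. Among the 9, 7 had every INT library above every CONT library, which held for 31% of all genes, and Grin2d was called although its groups overlapped. Since members were picked for a rise in this comparison, nothing is read from these counts. The median logFC (log2 fold change) of the 9 was 1.54, beside a median of -0.01 over all genes tested. All 9 passed the filter on low values, but Grid1 did so through INT3, VAS2 and VAS3 alone, and Gria2, Grid1 and Grik1 reached 3 CPM in no CONT library.

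**Figure D1:**
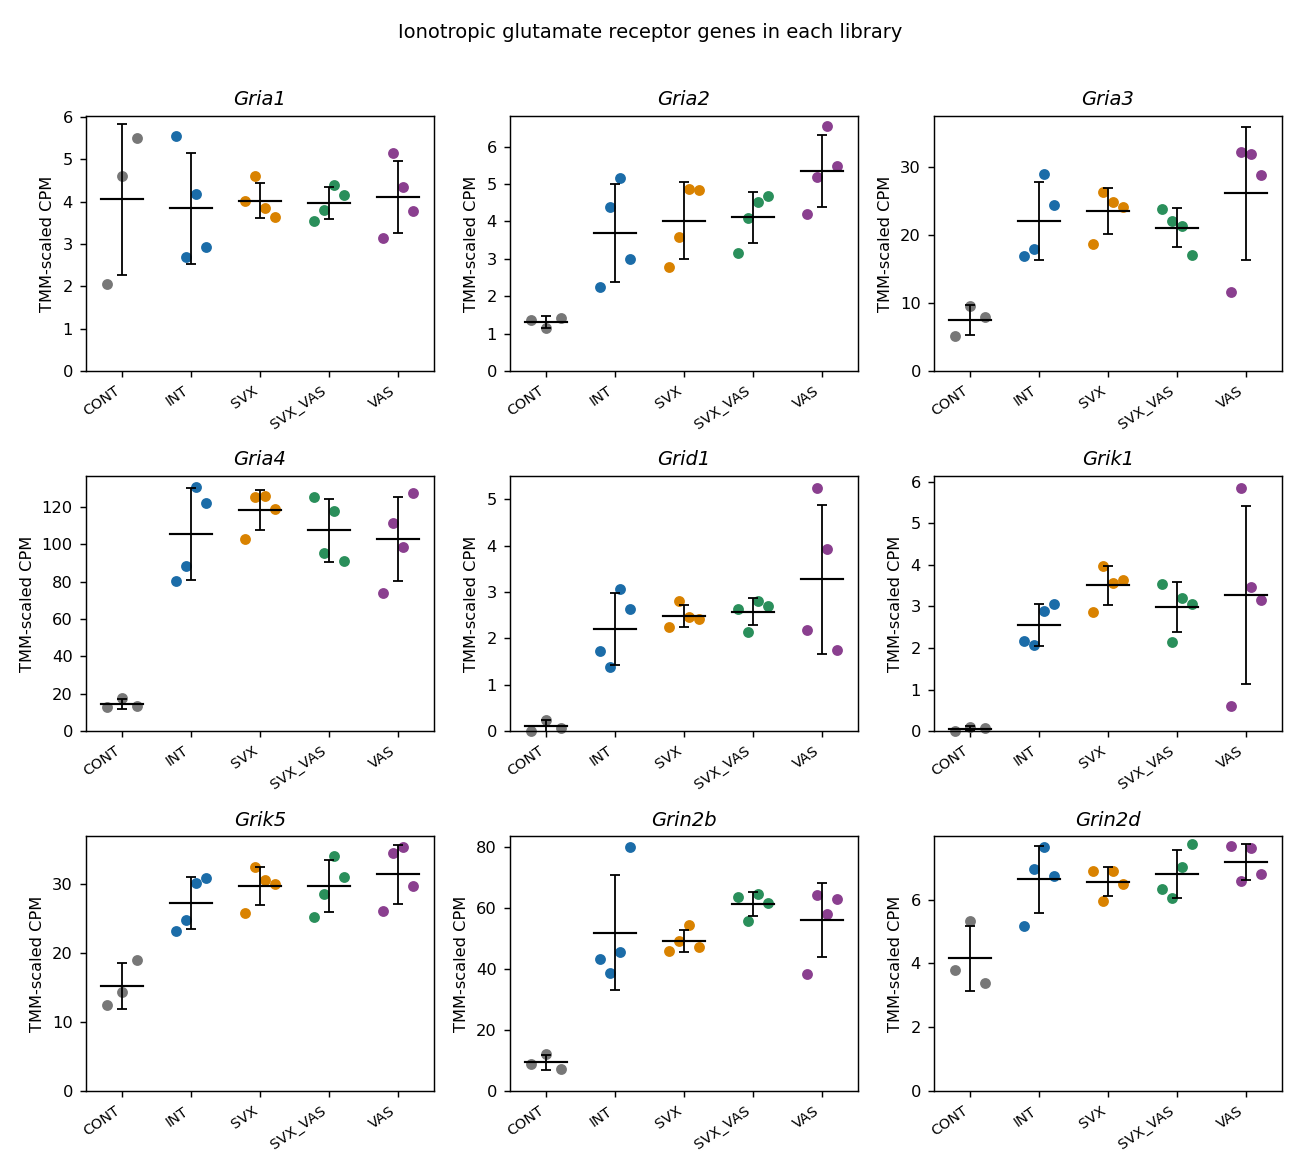
Each panel plots 1 gene in TMM-scaled CPM on an axis from 0, with a point for each of the 19 libraries, a long bar for the group mean and error bars of 1 SD (n = 3 for CONT, n = 4 for the others). Gria4 goes from 12.8 to 17.6 CPM in CONT to 73.8 CPM or more in every mated library, while Gria1 overlaps between all groups.

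Among the AMPA genes, Gria4 (chr9:4417896-4796234, minus strand, GRCm38), a subunit of fast-closing receptors, had the highest level per kb of exon in every group. Its CPM was 12.8, 17.6 and 13.6 in CONT1, CONT2 and CONT4. It was 80.6, 88.4, 131 and 122 in INT1 to INT4. INT1 and INT2 were thus lower than INT3 and INT4, and all 4 lay far above estrus. The fitted change was 7.16-fold (logFC 2.84, SE 0.22). The level was 103, 125, 126 and 119 CPM in SVX1 to SVX4, 126, 95.5, 118 and 91.1 CPM in SVX_VAS1 to SVX_VAS4, and 73.8, 112, 98.6 and 127 CPM in VAS1 to VAS4. The lowest mated value, that of VAS1, was above the highest CONT value.

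Gria3 (chrX:41400854-41678601, plus strand) encodes another calcium-permeable AMPA subunit and had 5.20, 9.56 and 7.99 CPM in CONT. It had 16.9, 18.0, 29.1 and 24.4 CPM in INT, with the same pair of libraries, INT1 and INT2, at the low end as for Gria4. The logFC was 1.54 (SE 0.31). In the other mated groups it ran from 18.6 to 26.3 CPM in SVX, from 17.1 to 23.9 CPM in SVX_VAS and from 11.6 to 32.2 CPM in VAS. VAS1 was the lowest mated library and was still above the CONT libraries.

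Gria2 (chr3:80681450-80802835, minus strand), whose edited subunit blocks calcium entry, was low throughout. It had 1.36, 1.14 and 1.43 CPM in CONT and 2.25, 4.38, 5.16 and 2.99 CPM in INT. The groups did not overlap and the logFC was 1.5 (SE 0.29). VAS had the highest group mean, 5.35 CPM, and INT the lowest mated mean, 3.70 CPM. Gria1 (chr11:57011387-57330244, plus strand), the subunit moved into synapses during plasticity in the brain, had 2.07, 4.6 and 5.5 CPM in CONT and 5.56, 2.69, 4.19 and 2.92 CPM in INT. Its groups overlapped in full, and its logFC was -0.08 (SE 0.30, 95% interval -0.71 to 0.55). Its mean stayed between 3.84 and 4.10 CPM in all 5 groups.

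Levels of different genes can be compared only per length, so CPM was divided by the kilobases of exon in the counts' annotation. On that scale the 4 AMPA genes together had 3.85 ± 0.81 CPM per kb in CONT (SD, n = 3) and 19.8 ± 4.5 in INT (SD, n = 4). Gria4 took 61.0% ± 6.8 of this sum in CONT and 84.2% ± 1.6 in INT, while Gria1 took 17.0% ± 5.7 and 3.39% ± 1.71. The share of Gria2 was 2.28% ± 0.66 in CONT and 1.21% ± 0.39 in INT. Gria4 made up 85.0% ± 0.5 in SVX, 84.6% ± 1.4 in SVX_VAS and 81.8% ± 3.4 in VAS. Transcripts for the subunit that limits calcium entry were thus the smallest part of the AMPA sum in each group, and editing itself was not measured.

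**Figure D2:**
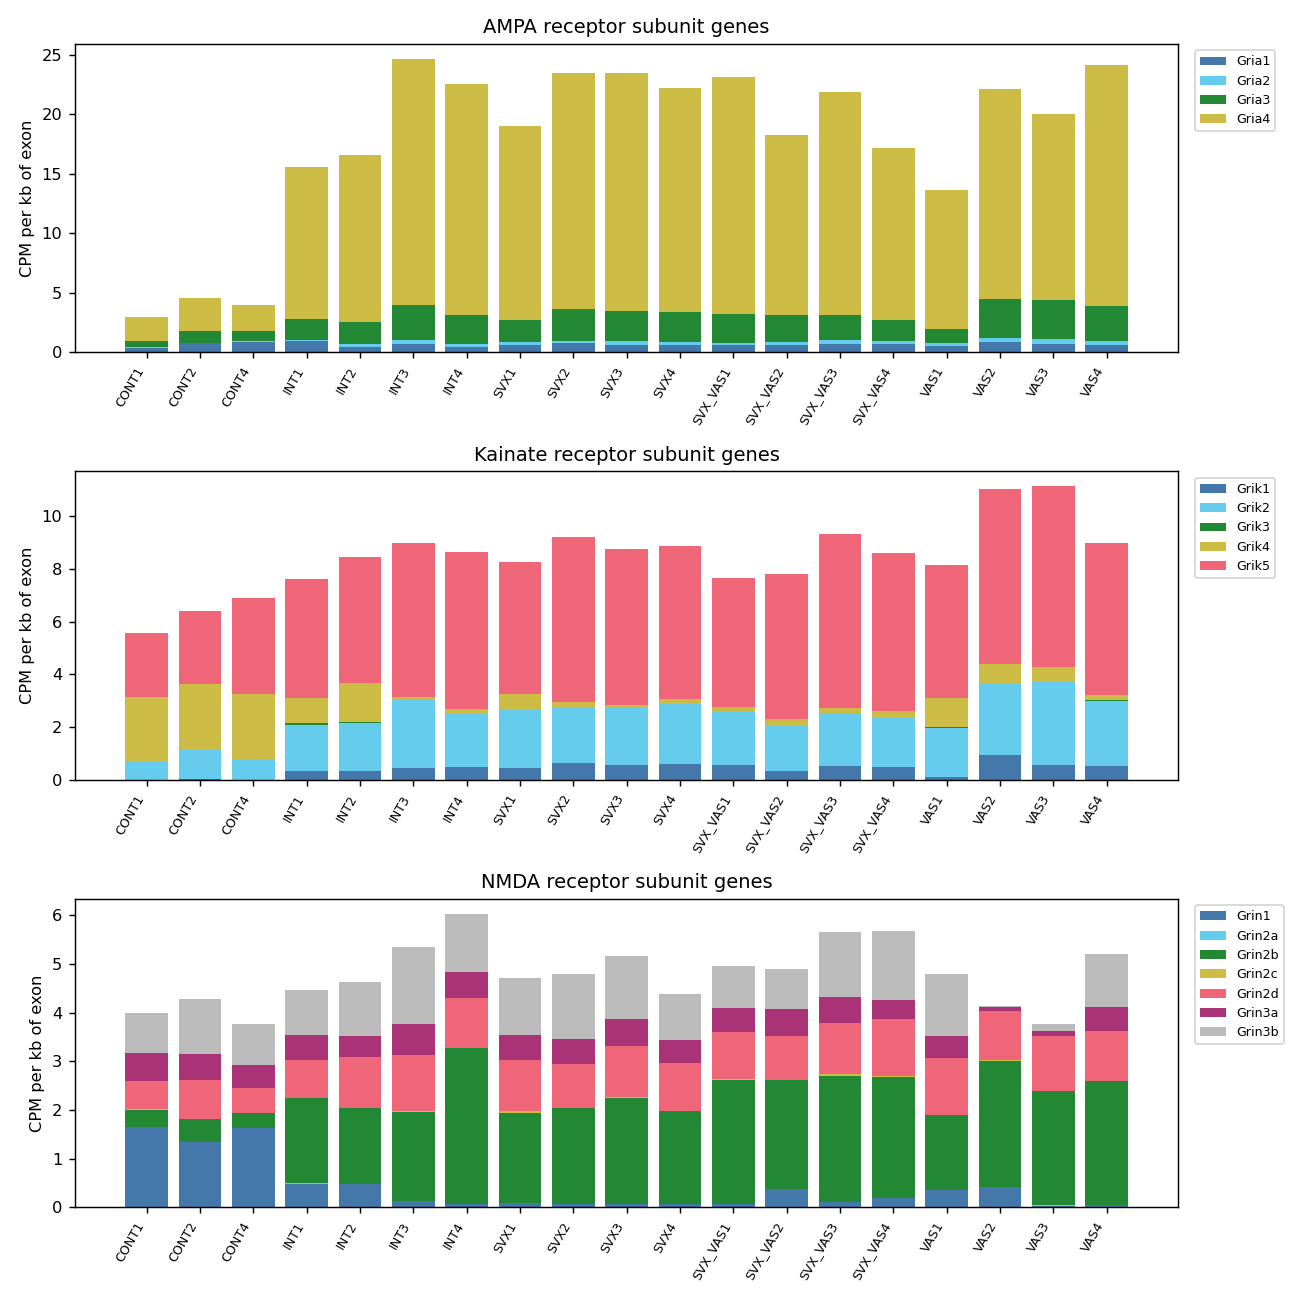
Stacked bars give the level of each AMPA, kainate and NMDA gene in CPM per kb of exon, with 1 bar per library and axes from 0. Gria4 fills most of the AMPA bars in mated libraries, and Grin1 and Grik4, large in the 3 CONT bars, shrink in the others while Grin2b widens.

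Of the kainate genes, Grik5 (chr7:25009849-25072346, minus strand), which encodes a high-affinity subunit that needs a low-affinity partner, took the largest mean share of the kainate sum per kb in mated endometrium. At estrus Grik5 and Grik4 could not be ranked. Grik5 had 12.5, 14.3 and 18.9 CPM in CONT and 23.2, 24.8, 30.1 and 30.8 CPM in INT. The groups did not overlap, and the logFC was 0.84 (SE 0.16). In SVX, SVX_VAS and VAS it ran from 25.2 to 35.3 CPM. Grik1 (chr16:87895900-88290265, minus strand), a low-affinity subunit, was close to absent at estrus, with 0, 3 and 1 counts in the CONT libraries. It had 29, 33, 51 and 44 counts in INT, or 2.18, 2.07, 2.89 and 3.06 CPM. The pooled ratio of 157 to 4 counts, scaled for depth, was 37.3 (95% exact binomial interval 14.3 to 139, counting error only). Of those 4 CONT counts, 3 came from CONT2, so the ratio rests mainly on that library. Grik1 had 2.86 to 3.98 CPM in SVX and 2.15 to 3.55 CPM in SVX_VAS, while VAS spanned 0.62 CPM in VAS1 to 5.84 CPM in VAS2.

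The delta gene Grid1 (chr14:34820108-35583379, plus strand) was likewise almost undetected at estrus, with 0, 7 and 1 counts. INT held 23, 22, 54 and 38 counts, or 1.73, 1.38, 3.06 and 2.64 CPM. The pooled ratio of 137 to 8 counts was 16.3 (95% exact binomial interval 8.03 to 38.4). Of those 8 CONT counts, 7 came from CONT2, so the ratio rests mainly on that library. Grid1 had 2.24 to 2.81 CPM in SVX, 2.15 to 2.82 CPM in SVX_VAS and 1.75 to 5.24 CPM in VAS. Its highest values, 5.24 and 3.92 CPM, were in VAS2 and VAS3.

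Of the NMDA genes, Grin2b (chr6:135713233-136173511, minus strand), a glutamate-binding subunit prominent in the young brain, had 8.80, 12.2 and 7.31 CPM in CONT. It had 43.3, 38.8, 45.4 and 79.7 CPM in INT, where INT4 lay well above the other 3. The logFC was 2.45 (SE 0.25), a 5.46-fold change. It had 46.0, 49.1, 54.3 and 47.2 CPM in SVX, 63.5, 55.6, 64.5 and 61.5 CPM in SVX_VAS, and 38.2, 64.3, 57.9 and 63.0 CPM in VAS. Grin2d (chr7:45831883-45878378, minus strand), a glutamate-binding subunit of slowly closing receptors, had 3.78, 5.31 and 3.39 CPM in CONT and 5.19, 6.95, 7.65 and 6.75 CPM in INT, where INT1 fell below CONT2. Its logFC of 0.67 (SE 0.17) was close to the fold cutoff, and without CONT replicate 4 (0.54) or without INT replicate 3 (0.56) the gene was not called. Exons of an antisense gene, Gm45441, cover 9.66% of the Grin2d exon bases, and the strand setting of the counting is not given in the sources used here.

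Near the fold cutoff, Grin2d with a 1.59-fold change was the called member with the smallest change and Gria1 was the only one outside. Per kb of exon, the order of the 9 genes in CONT was Grik5 (2.95), Gria4 (2.33), Gria3 (0.77), Gria1 (0.67), Grin2d (0.63), Grin2b (0.38), Gria2 (0.084), Grid1 (0.018) and Grik1 (0.0098). Grik5 and Gria4 differed by no more than the larger of their SDs, as did Gria3, Gria1 and Grin2d among themselves. The same held for Gria1 and Grin2b and for Grid1 and Grik1, so these cannot be ranked against each other. In INT the order was Gria4 (16.7), Grik5 (5.27), Gria3 (2.24), Grin2b (2.08), Grin2d (0.996), Gria1 (0.64), Grik1 (0.41), Grid1 (0.36) and Gria2 (0.24). Gria3 and Grin2b lay within their SD there, as did Grik1 and Grid1, and Grid1 and Gria2. Without division by length, Grin2b had rank 2 in INT in place of rank 4, since its exons are the longest of the 9.

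The other 9 genes of the family were not all higher. Of these, 5 passed the filter: Grik2 was higher in INT than in CONT, Grin1 and Grik4 were lower, and Grin3a and Grin3b were not called. Grin2a, Grin2c and Grik3 stayed at or below 0.53 CPM in every library. Grin1 (chr2:25291181-25319187, minus strand), the subunit that NMDA receptors require, had 15.9, 12.9 and 15.9 CPM in CONT. It had 4.73, 4.70, 1.25 and 0.70 CPM in INT, 0.63 to 0.85 CPM in SVX, 0.62 to 3.58 CPM in SVX_VAS and 0.37 to 3.99 CPM in VAS. No mated library reached the CONT values. The fall in INT was 5.25-fold (logFC -2.39, SE 0.76, FDR 0.016 by edgeR), and SVX, SVX_VAS and VAS gave logFC of -4.38, -3.06 and -2.83 against the same CONT libraries. Exons of the antisense gene Grin1os cover 13.5% of the Grin1 exon bases, so part of its counts may belong to that gene.

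Grik4 (chr9:42518135-42944493, minus strand), the other high-affinity kainate subunit, had 14.6, 15.0 and 14.8 CPM in CONT. It had 5.71, 8.70, 0.74 and 0.97 CPM in INT. The groups did not overlap, but INT1 and INT2 lay several-fold above INT3 and INT4. The logFC was -1.88 (SE 0.74, FDR 0.045 by edgeR), and without any single CONT library, without INT replicate 3 or without INT replicate 4 the FDR was 0.083 to 0.11. With all libraries kept, the call was also lost with upper quartile factors (FDR 0.053), with every gene of at least 1 count in the fit (0.062) and in a fit of the INT and CONT libraries alone (0.063). Against the same CONT libraries the logFC was -3.28 in SVX, -3.51 in SVX_VAS and -1.95 in VAS. Grik2 (chr10:49094833-49788766, minus strand), a low-affinity subunit, had 5.49, 9.20 and 6.18 CPM in CONT and 14.4 to 21.0 CPM in INT (logFC 1.26, SE 0.19).

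The shares of the genes within these classes are given as a description, with no test. Of the NMDA sum per kb, Grin1 took 38.7% ± 6.5 in CONT (SD, n = 3) and 6.26% ± 5.18 in INT (SD, n = 4). Grin2b took 9.38% ± 1.87 and 40.1% ± 9.1. The sum itself was 4.01 ± 0.26 CPM per kb in CONT and 5.11 ± 0.72 in INT. Of the kainate sum, Grik4 took 39.8% ± 4.1 in CONT and 8.29% ± 7.92 in INT, Grik5 took 46.6% ± 5.5 and 62.5% ± 5.6, and Grik2 took 13.4% ± 3.5 and 24.0% ± 3.0.

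The 3 mated libraries with the least Gria4 had the most Grik4 and were among the 5 with the most Grin1. INT1, INT2 and VAS1 had 80.6, 88.4 and 73.8 CPM of Gria4, 4.73, 4.70 and 3.47 CPM of Grin1, and 5.71, 8.70 and 6.55 CPM of Grik4. INT3, with 131 CPM of Gria4, had 1.25 and 0.74 CPM of them. Over the 16 mated libraries, Pearson's r of log2 CPM was -0.71 between Gria4 and Grin1 and -0.81 between Gria4 and Grik4. Without VAS2 and VAS3, a set chosen after seeing the data, it was -0.88 and -0.85 over 14 libraries. These libraries share their depth scaling and come from 4 groups, so r is given as a description. The estrogen-response sum was high in INT1, INT2 and VAS1 too, and the sum of 6 epithelial markers was 2253, 1846 and 1966 CPM there against 601 CPM in INT3. SVX_VAS2 departed from this: it had the highest estrogen-response sum of the mated libraries and 1790 CPM of epithelial markers, with 95.5 CPM of Gria4 and 3.58 CPM of Grin1 but 1.49 CPM of Grik4. The part of either in the levels of these genes was not tested.

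**Figure D3:**
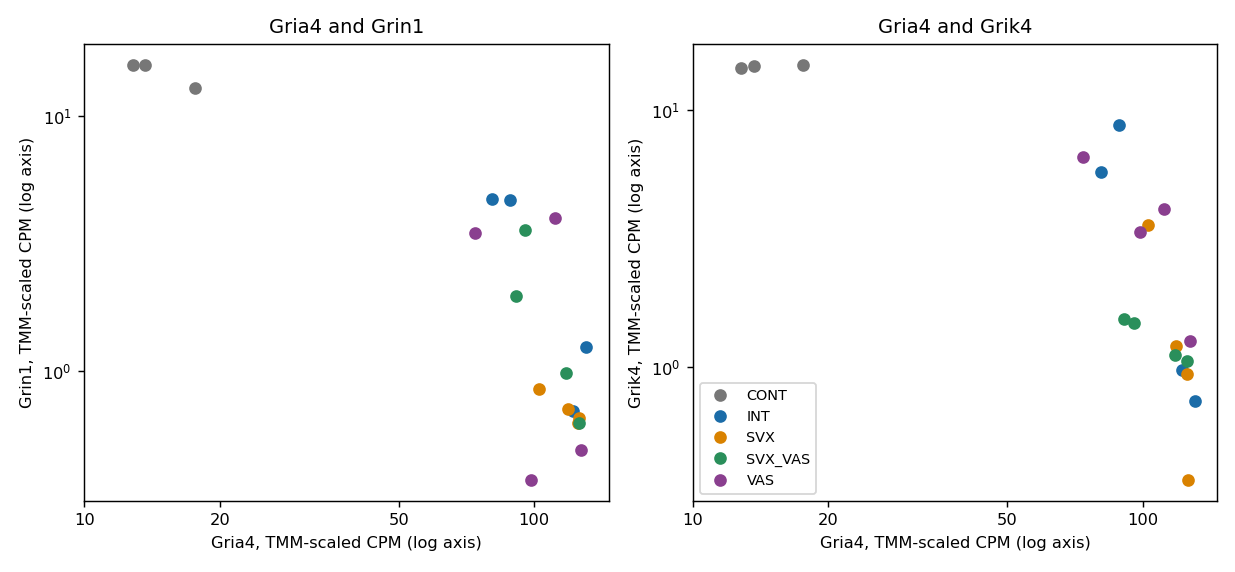
Each point is 1 of the 19 libraries, with Gria4 on the x axis and Grin1 (left) or Grik4 (right) on the y axis, all in TMM-scaled CPM on log axes and coloured by group. The 3 CONT libraries sit at the upper left, and INT1, INT2 and VAS1 lie between them and the mated libraries with the most Gria4.

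The other mated groups gave the same count of called members against CONT. In all, 8 of 9 were higher in SVX, SVX_VAS and VAS, where 23.1%, 22.1% and 23.2% of all genes tested were called higher. The 4 comparisons share the CONT libraries, so they are no separate support. Side by side in INT, SVX, SVX_VAS and VAS, the logFC against CONT was 2.84, 3.0, 2.87 and 2.80 for Gria4. It was 1.54, 1.63, 1.48 and 1.79 for Gria3, and 1.5, 1.62, 1.65 and 2.03 for Gria2. For Grin2b it was 2.45, 2.37, 2.69 and 2.56, for Grik5 0.84, 0.96, 0.96 and 1.04, and for Grin2d 0.67, 0.65, 0.70 and 0.78. Gria1 stayed between -0.08 and 0.02. Grin2d was again close to the fold cutoff: its logFC was 0.58 in SVX without CONT replicate 1, and 0.52 in SVX and 0.57 in SVX_VAS without CONT replicate 4, and it was not called then. Without VAS2 and VAS3, the same 8 members were called in VAS, with a logFC of 2.81 for Gria4. The logFC of Grik1 was 5.47 with all VAS libraries and 4.65 without VAS2 and VAS3, and that of Grid1 was 4.63 and 3.88.

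Whether the male's surgery changed these genes was asked in the comparisons between mated groups. None of the 9 was called in SVX, SVX_VAS or VAS against INT, nor in SVX_VAS against SVX, VAS against SVX or VAS against SVX_VAS. In each of these 6 comparisons edgeR called 0% of the 17222 genes. The last 3 contrast groups other than INT and CONT. They are not independent of INT against CONT, since all 19 libraries shared the filter, the scaling and the fit. At an unadjusted p under 0.05, edgeR gave 749, 339, 1831, 240, 2651 and 2520 genes in the 6 comparisons in that order, and none of the 9 in any of them. The smallest unadjusted p of a member was 0.051, that of Gria2 in VAS against INT (logFC 0.53, 95% interval -0.0021 to 1.06, FDR 0.45 by edgeR).

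**Figure D4:**
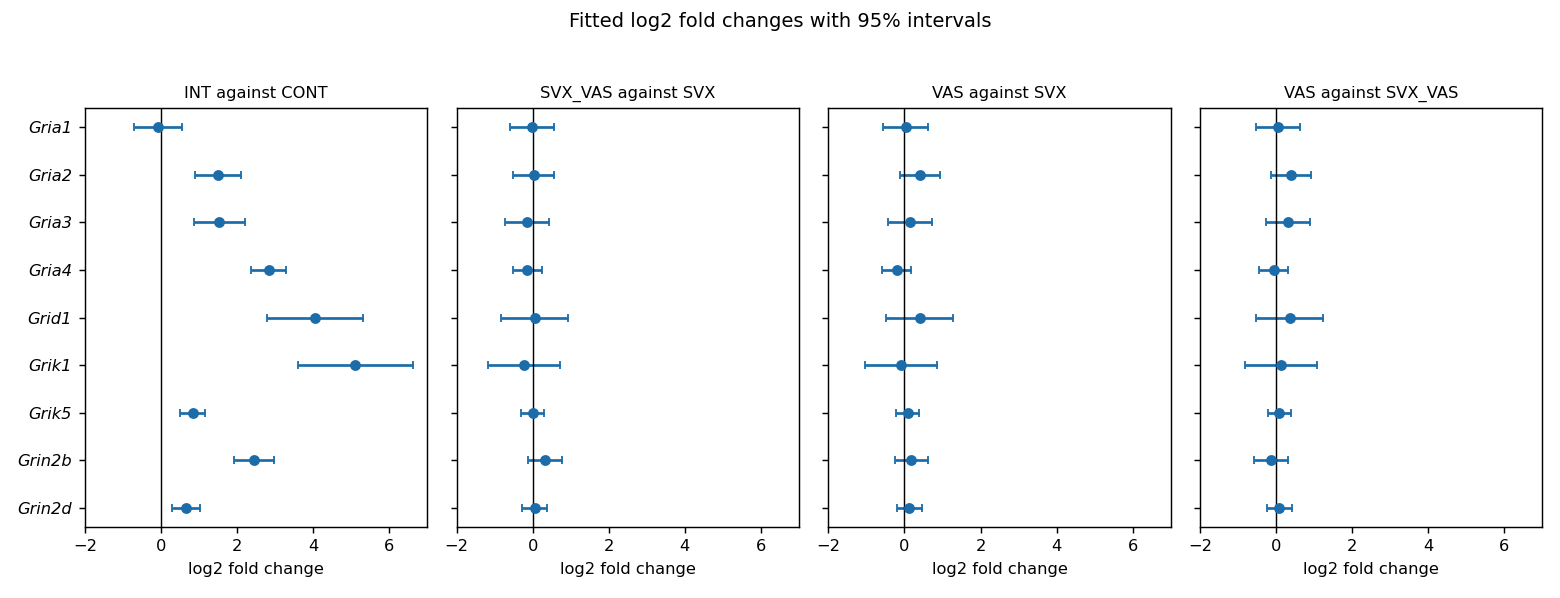
Points are the fitted logFC of each gene and bars their 95% intervals, in INT against CONT and in the 3 comparisons among SVX, SVX_VAS and VAS. In all, 8 genes lie to the right of 0 in the first panel, and in the other 3 panels every interval includes 0.

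The fitted logFC of the 9 genes between mated groups ran from -0.23 to 0.58. Their 95% intervals reached -1.18 and 1.46 at the widest, for the low genes Grik1 and Grid1, so changes of up to 2.74-fold lie within an interval. For Gria4 the intervals were narrower, from -0.52 to 0.24 in SVX_VAS against SVX, from -0.58 to 0.18 in VAS against SVX and from -0.45 to 0.32 in VAS against SVX_VAS. For Grik5 they were -0.30 to 0.30, -0.22 to 0.38 and -0.22 to 0.38. Grin2b was the only member whose groups did not overlap in any of the 6: the SVX_VAS libraries (55.6 to 64.5 CPM) were above the SVX libraries (46.0 to 54.3 CPM). Its logFC was 0.32 (95% interval -0.13 to 0.76), and 2.45% of all genes did not overlap in that comparison.

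Other tools gave other counts. DESeq2 called none of the 9 in the 6 comparisons and 3, 2, 0, 0, 1 and 26 of all genes. Limma-voom called none of the 9 and 0, 0, 1661, 0, 1656 and 1804 of all genes. With sample quality weights, limma-voom called 4 of the 9 in VAS against INT (Gria2, Gria3, Grid1 and Grik1, logFC 0.66, 0.64, 1.21 and 0.76) and Grid1 in VAS against SVX (0.69) and against SVX_VAS (0.65), beside 4718, 4640 and 4637 of all genes. Grid1 had passed the filter on low values through VAS2, VAS3 and INT3 alone, so its calls in VAS are no separate support. Without VAS2 and VAS3, edgeR, DESeq2 and limma-voom with and without quality weights called none of the 9 in any of the 6 comparisons and 0 of all genes in the 3 VAS comparisons. DESeq2 then called 7 and 5 of all genes in SVX and SVX_VAS against INT, and limma-voom with quality weights 5 in SVX against INT. For DESeq2 and limma-voom this alternative was chosen after seeing the data. At an unadjusted p under 0.05, edgeR then gave 163, 780 and 1002 genes in VAS against INT, SVX and SVX_VAS. Without VAS replicate 4, edgeR called 134, 683 and 573 genes in VAS against INT, SVX and SVX_VAS, and without VAS replicate 1 it called 576 in VAS against INT, with none of the 9 among them.

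VAS2 and VAS3 were also the lowest libraries for the Grin3 genes, whose subunits bind glycine and lower calcium flow. Grin3a had 1.11 and 1.26 CPM there and 4.90 to 7.88 CPM in the other 17 libraries. Grin3b had 0.09 and 0.47 CPM there and 2.70 to 5.21 CPM elsewhere, and exons of Tmem259 on the opposite strand cover 32.1% of its exon bases. EdgeR called neither in any of the 10 comparisons.

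The rest of the pathway was read from 10 lists of 89 genes, the 9 other receptor genes included, of which 48 passed the filter. In INT against CONT, 24 were higher, 6 were lower and 18 were not called, with a median logFC of 0.61. The count of lower genes was 3 with upper quartile factors and 11 without the fold cutoff. Of all genes tested, 20.9% were higher and 12.7% lower, with a median of -0.01. Of the AMPA receptor auxiliary genes, 5 of 9 tested were higher and 1 was lower. Nptx1, a secreted pentraxin that clusters AMPA receptors, had 8.90 CPM in INT and 0.44 in CONT (logFC 4.41, SE 0.61). Porcn, an acyltransferase that also associates with AMPA receptors, had 31.0 and 46.9 CPM (logFC -0.60, SE 0.17). The INT and CONT values of Porcn overlapped, and its logFC was close to the fold cutoff. Neto2, a kainate receptor auxiliary subunit and the only one tested, was higher (logFC 0.65, SE 0.23), close to the fold cutoff. Against the same CONT libraries it was called in VAS (logFC 0.74) but not in SVX (0.41) or SVX_VAS (0.44). All 3 delta receptor partners tested were higher: Grid2ip (logFC 4.10, SE 0.45), a scaffold of delta receptors, showed the largest change and Nrxn2 (logFC 1.80, SE 0.36) the smallest.

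Of 15 scaffold genes tested, 7 were higher and 2 lower. Dlg2, a membrane scaffold that anchors NMDA receptors, had 21.1 CPM in INT and 1.65 CPM in CONT (logFC 3.65, SE 0.51). Grip1, which binds AMPA receptors, had 15.2 and 57.3 CPM (logFC -1.92, SE 0.55). Of 5 transporters tested, 4 were higher, led by Slc1a3, a glutamate uptake transporter, with 12.5 CPM in INT and 0.93 CPM in CONT (logFC 3.71, SE 0.40). Slc7a11, the cystine-glutamate exchanger, had a logFC of -1.54 (SE 1.07) and was not called in INT. Against the same CONT libraries, SVX and SVX_VAS each had 1 transporter called lower, and VAS had none. Slc7a11 was the only one of the 5 with a lower mean in SVX and SVX_VAS, at 49.9 and 32.4 CPM against 315 CPM in CONT. None of 6 enzymes of glutamate and D-serine metabolism was called: Glul, which makes glutamine, had a logFC of 0.57 (SE 0.37). The vesicular glutamate transporters summed to 0.53 CPM or less in every library. Grm7, the only metabotropic receptor gene tested of 8, was higher (logFC 0.80, SE 0.18).

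The enzymes that edit receptor transcripts were also measured. Adarb2, a brain-type family member without known editing activity, was at 0 to 0.07 CPM in CONT and 3.82 to 18.8 CPM in INT. Adarb1, the enzyme that edits the calcium site of Gria2 and a gene named here after its values were seen, had 18.2 CPM in CONT and 29.5 CPM in INT (logFC 0.70, SE 0.18). Adar had 258 and 155 CPM (logFC -0.73, SE 0.14). Between mated groups edgeR called 0 of the 17222 genes tested, so no gene of the 10 lists was called there and nothing is read from this.

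Markers of other cell types moved with the same comparison. None of 12 neuron and axon markers passed the filter. They summed to 2.48 to 3.92 CPM in CONT and 6.07 to 9.18 CPM in INT, and Nefm was at 0 in every CONT and INT library. Epithelial markers were lower (5 of 6; 601 to 2253 CPM in INT against 3209 to 4391 CPM in CONT). Endothelial markers were higher (6 of 6; 623 to 958 against 163 to 241 CPM), as were pericyte markers (5 of 6; 903 to 1278 against 347 to 446 CPM) and stromal fibroblast markers (5 of 8; 6842 to 8424 against 4815 to 5083 CPM). Of the leukocyte markers 5 of 7 were higher and 2 lower, of the smooth muscle markers 1 of 6 was higher, and of the progesterone-response genes 7 of 8 were higher. Of the estrogen-response genes 1 of 8 was lower in INT, while SVX, SVX_VAS and VAS had 7, 3 and 2 lower against CONT. Of 8 blastocyst markers only Eomes was tested and was higher, with 5.36 CPM in INT and 1.74 CPM in CONT. Its mean was 5.81, 4.80 and 6.23 CPM in SVX, SVX_VAS and VAS. The other markers did not pass the filter, and Pou5f1 and Cdx2 were at 0 in every CONT and INT library. Whether Eomes came from embryos was not tested. The part of these cell types in the levels of the receptor genes was not tested.

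Genes with the pattern most like each member over the 16 mated libraries were found by Pearson's r of log2 CPM among the genes tested. For Gria4 they were Rap2a (0.97), Gdf11 (0.96) and Heph (0.95), and for Gria3 they were Dnal1, Hmcn1 and Rps6ka5 (0.95 to 0.96). For Grik1 they were Gm42589, Nckap5 and Nrn1 (0.94), and for Grin2d Polrmt (0.95), Dot1l and Nup214 (both 0.87). For Grik5 they were Cpxm1 (0.91), Xylt1 and Gigyf1 (both 0.90), for Grid1 Hic2 (0.91), Gm37084 (0.89) and Mtg2 (0.88), and for Grin2b Frmpd1, Sh3tc2 and Slc16a12 (all 0.89). Gria2 was most like Gm37969 (0.84), Rin3 and Rfx1, and Gria1 most like Cd36 (0.80), Rnf185 and Gzmf. The matches of Grid1 were weaker without VAS2, VAS3 and SVX1, a library that an earlier analysis of these data set apart: over the 13 libraries left, r was 0.77 for Hic2, 0.77 for Gm37084 and 0.73 for Mtg2, and many other genes had a higher r. Over the same 13 libraries only Rps6ka5 for Gria3 and Polrmt for Grin2d had the highest r for their member. Among the members, Gria3 and Gria4 had an r of 0.77 over the 16 libraries and 0.93 over the 14 without VAS2 and VAS3, and Gria3 and Grik1 had 0.82 and 0.80.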

How the data were processed

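The deposited values are raw counts of reads per gene in 19 mouse endometrium libraries. Per the methods, the authors prepared libraries with a stranded total RNA kit from pooled samples, sequenced both ends, trimmed adapters, aligned with STAR to GRCm38 and counted with featureCounts. The same deposited table gives an exon length per gene, used for CPM per kb. Symbols were found for 48349 of 49089 genes, and positions came from GENCODE.

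The 17222 genes that reached 3 CPM in 3 or more libraries entered 1 quasi-likelihood fit of all 5 groups in edgeR 4.0.16 under R 4.3.3, with TMM factors and no replicate block. A gene was called when its FDR (Benjamini-Hochberg) was 0.05 or less and its change at least 1.5-fold. Log2 CPM used a prior count of 2. Intervals on pooled counts cover counting error only. Library totals of 12661266 to 31781270 limit the low genes: 3 counts are 0.107 to 0.234 CPM.

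The members and gene lists were chosen with earlier results of these data known. Named genes were all members, the other receptor genes, in each list the tested genes with the highest and lowest logFC of INT against CONT and any called between mated groups, marker genes, and the 3 genes most like each member. A few genes that this rule names are not reported here. Alternatives were other scalings, DESeq2 1.42.0, limma-voom (limma 3.58.1), other filters and groups in the fit, a replicate block and left-out libraries. Combinations of these tools with left-out VAS2 and VAS3, and correlations without them, were added after the data were seen. Promoters were searched with Python 3.11.15.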

Additional observations from a re-analysis of the deposited data

Results flagged for a closer look

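In all, 2 values stood far from the other libraries of their group, of 56 gene and group sets of 4 libraries that were looked at. Chance alone marks about 1 in 20 such sets. Gria3 was at 11.6 CPM in VAS1, and VAS2, VAS3 and VAS4 were at 28.9 to 32.2 CPM. Grin2b was at 79.7 CPM in INT4, and INT1, INT2 and INT3 were at 38.8 to 45.4 CPM. VAS1 was also the lowest mated library for Gria4 (73.8 CPM) and Grik1 (0.62 CPM).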

How the results depend on the processing

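The count of members called against CONT was 7 or 8 in every alternative run, and the member missing at 7 was Grin2d. All genes called in either direction ran from 4913 to 8283 in INT and 6462 to 9836 in SVX in these runs. They ran from 5763 to 9285 in SVX_VAS and 5131 to 10091 in VAS. Leaving out 1 library gave 7 to 8 in INT, SVX and SVX_VAS and 8 in VAS against CONT, and 0 in each comparison between mated groups. Limma-voom with sample quality weights gave 4 members in VAS against INT, 1 in VAS against SVX and 1 in VAS against SVX_VAS. It called 4718, 4640 and 4637 of all genes there. EdgeR called 0 members and 0 of all genes in the same comparisons. Without VAS2 and VAS3, limma-voom with these weights gave 0 members and 0 of all genes in each. The other pathway genes called lower in INT against CONT numbered 6, and were 3 with upper quartile factors and 11 without the fold cutoff, which by construction admits smaller changes. Leaving out 1 library gave 22 to 24 higher and 4 to 6 lower. For the members in the 4 comparisons with CONT, and for Grik2, Grik4, Grin1, Grin3a and Grin3b in INT against CONT, no called change turned its direction, and 889 of 902 alternative values kept their side of the cutoffs. The 13 others were Grik4 (FDR up to 0.11) and Grin2d. Of 90 group means under other scalings, 3 moved by more than 1 SD: with library totals alone, Gria2 was 1.13 CPM in CONT, and Grik5 was 36.7 and Grin2d 8.26 CPM in VAS. With a replicate block, 8 members were called in each of the 4 comparisons with CONT and 0 in the 6 others, and the pathway gave 23 higher and 6 lower. Same-numbered libraries had correlations of deviations from -0.69 to 0.58, and 11 of 36 were best matched by their own number. Libraries far from their group, such as VAS2 and VAS3, weigh on these values. They therefore cannot settle whether the replicate numbers pair the samples. At this depth 3 counts correspond to 0.107 to 0.234 CPM, which limits Grid1 and Grik1 at estrus.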
